A study of Mus musculus with 6 samples.

Results

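The NR4A family of orphan nuclear receptors has 3 members in the mouse, Nr4a1 (Nur77), Nr4a2 (Nurr1) and Nr4a3 (Nor1). They were taken by gene symbol, and all 3 were found among the 32739 genes of the sample files and among the 12047 genes that could be tested. The 6 RNA-seq libraries were made from HL-1, an established cell line derived from mouse atrial cardiomyocytes. Per the series design, every library came from cells taken through 6 h of hypoxia and then 1 h of reoxygenation; the sample descriptions carry the code ReOx7h, which they do not explain. In 3 libraries the culture medium held 5 µM BRL37344 (called BRL here), named in the series as a drug that activates the β3-adrenergic receptor, and in the other 3 it held vehicle. No library without hypoxia is part of the comparison, all cells are of 1 line, and the labels do not say when BRL was added. The labels do not say whether replicates were separate cultures, so p-values rest on a spread between libraries that may be only technical.

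NR4A receptors are transcription factors with the zinc-finger DNA-binding domain of nuclear receptors, but their ligand pocket is filled by side chains of the protein itself. Their activity is therefore set largely by how much of them a cell makes, and their genes are immediate early genes that cyclic AMP, calcium and growth factor signals switch on within minutes to hours. Cyclic AMP acts on them through CREB, a factor that binds the cyclic AMP response element (CRE) in promoters. The receptors bind the element NBRE alone, and Nr4a1 and Nr4a2 also bind DNA as dimers with RXR. In heart and skeletal muscle they are known as genes induced by adrenergic stimulation, with effects on glucose and lipid metabolism.

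The promoters of the 3 genes are shown because CREB binding is the textbook route from cyclic AMP to this family. The sequences are those of RefSeq, build GRCm38.p6, read 5′ to 3′ on the strand of the gene, and capitals mark the CRE core, TGACG or its reverse complement CGTCA. For Nr4a1 and Nr4a2 the 250 bases before the transcript start are given. For Nr4a3, where 152 of these 250 bases lie in exons of other annotated transcripts of the gene (GENCODE M21), 3 windows of 22 bases around the motifs are given.
Nr4a1, chr15:101266596-101266845, plus strand: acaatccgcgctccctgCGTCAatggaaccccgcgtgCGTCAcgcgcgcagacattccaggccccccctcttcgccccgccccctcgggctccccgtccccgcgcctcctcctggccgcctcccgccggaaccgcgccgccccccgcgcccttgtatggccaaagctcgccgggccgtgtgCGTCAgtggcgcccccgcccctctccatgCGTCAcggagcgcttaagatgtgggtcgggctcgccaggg
Nr4a2, chr2:57124004-57124253, minus strand: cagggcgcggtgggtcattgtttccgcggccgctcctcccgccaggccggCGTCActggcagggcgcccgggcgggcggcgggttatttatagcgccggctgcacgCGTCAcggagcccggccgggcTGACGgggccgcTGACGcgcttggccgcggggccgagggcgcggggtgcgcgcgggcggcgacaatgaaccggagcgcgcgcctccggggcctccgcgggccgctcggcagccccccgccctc
Nr4a3, chr4:48045065-48045086, plus strand: ggaggagggTGACGtagcgtcc
Nr4a3, chr4:48045087-48045108, plus strand: catgtCGTCAcatTGACGtctc
Nr4a3, chr4:48045149-48045170, plus strand: tggcataaaTGACGtgccgaga

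Each of the 3 promoters held the CRE core at 4 separate places. Of 32851 RefSeq promoter windows of the same length, from 250 bases before to 50 after the start, 20.8% held the core at 1 place or more on either strand. Of all these windows, which include those of genes not tested here, 37 (0.113%) held it at 4 places or more. None of the 3 held the complete palindrome TGACGTCA, which was found in 1.79% of windows, and none held the NBRE (AAAGGTCA, either strand), found in 1.51%. The windows were rich in G and C, at 72.3% for Nr4a1, 81.7% for Nr4a2 and 64.7% for Nr4a3, and the core itself contains CG. The Nr4a1 window lies in an intron of 1 longer annotated transcript. Across tested genes with a window, 48 of 5784 genes with no core rose with BRL (0.830%), 27 of 2540 with 1 place (1.06%), 8 of 643 with 2 places (1.24%) and 1 of 155 with 3 or more (0.645%), and that 1 gene was Nr4a3. These matches are descriptions of the letters and do not show binding.

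**Figure D1:**
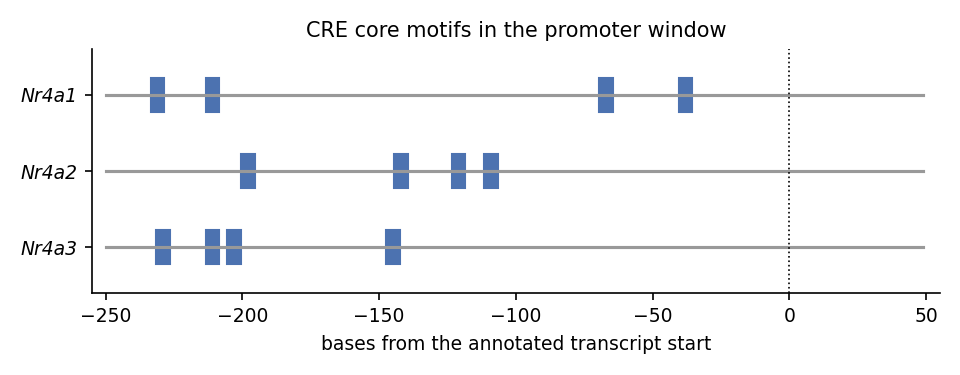
Positions of the CRE core (blue boxes, TGACG or CGTCA) in the promoter window of each NR4A gene, with the distance in bases from the annotated transcript start on the horizontal axis and the dotted line at the start. Each gene has 4 boxes, all upstream of the start; those of Nr4a1 nearest the start lie at -69 and -40, whereas those of Nr4a2 and Nr4a3 end at -107 and -143.

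Libraries differed in depth, in mitochondrial share and in the level of cell type markers. Total expected counts were 4440168 to 5060049 in vehicle and 6812810 to 8332472 in BRL, so depth did not overlap between the groups. BRL replicate 1 stood apart, with 5.03% of counts from mitochondrially encoded genes against 16.5% to 21.9% in the other 5 libraries, and the fold changes of the 3 members and the counts in each gene list are also given without it. All 10 cardiomyocyte markers had at least 10 counts in every library, and their summed level was 7422 to 8218 CPM (counts scaled to library size with TMM factors) in vehicle and 4145 to 5683 CPM in BRL, lowest in BRL replicate 1. Smooth muscle markers summed to 3054 to 3446 CPM in vehicle and 1267 to 2637 CPM in BRL. Markers of fibroblasts, endothelium and leukocytes summed to at most 6.30 CPM in any library, and Dcn, Lum, Csf1r and Ptprc had no counts. The part of these differences in the NR4A values was not tested. In such bulk libraries, fewer cells of a type and less RNA per cell cannot be told apart.

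Nr4a3 was the member that rose with BRL. Its counts in vehicle replicates 1, 2 and 3 were 27, 21 and 21, and in BRL replicates 1, 2 and 3 they were 210, 236 and 235. On the TMM scale these were 6.05, 4.41 and 4.26 CPM in vehicle and 27.8, 33.2 and 28.7 CPM in BRL. The groups were far apart: the lowest BRL library was 4.59 times the highest vehicle library, and the 3 BRL libraries, BRL replicate 1 included, lay within 1.20-fold of each other. The exact Poisson 95% interval, which covers counting error only, ran from 3.99 to 8.81 CPM in vehicle replicate 1 and from 24.2 to 31.8 CPM in BRL replicate 1. By edgeR's quasi-likelihood test the log2 fold change was 2.61 ± 0.18 (SE, adjusted p = 0.000693, n = 3 in each group), a 6.10-fold rise. In this fit 1.01% of all tested genes rose and 1.79% fell at adjusted p under 0.05. Among the 12047 genes Nr4a3 ranked 4 by p and 9 by size of rise.

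Nr4a1, the founding member and the one best known as a cyclic AMP and growth factor response gene, behaved unevenly across the BRL libraries. It had 266, 228 and 302 counts in vehicle and 496, 1027 and 910 in BRL replicates 1, 2 and 3. These were 59.6, 47.8 and 61.2 CPM in vehicle and 65.6, 145 and 111 CPM in BRL. BRL replicate 1 lay 1.07 times above the highest vehicle library, a gap smaller than the spread within the vehicle group and within counting error (60.0 to 71.7 CPM against 54.5 to 68.5 CPM for vehicle replicate 3). BRL replicates 2 and 3 stood at 2.57 and 1.98 times the vehicle mean, and the BRL libraries spanned 2.20-fold, wider than the 1.28-fold of vehicle. With all 6 libraries Nr4a1 missed the threshold, at 0.93 ± 0.26 on the log2 scale and an edgeR adjusted p of 0.0910. When BRL replicate 1 was left out, its log2 fold change was 1.19 and it passed (edgeR adjusted p = 2.3e-05), in a fit where 10.3% of tested genes rose and 10.9% fell. With all 6 libraries it also passed by DESeq2 (adjusted p = 0.00616), by edgeR's exact test (0.0129) and with no filter on low counts (0.0129).

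Nr4a2, best known for its role in dopamine neurons, was a low-count gene here. It had 22, 18 and 17 counts in vehicle and 53, 49 and 55 in BRL, or 4.93, 3.78 and 3.45 CPM in vehicle and 7.01, 6.90 and 6.72 CPM in BRL. All 3 BRL libraries were above all vehicle libraries and they lay within 1.04-fold of each other. The counting intervals overlapped, however, from 3.09 to 7.47 CPM in vehicle replicate 1 and from 5.06 to 8.75 CPM in BRL replicate 3. Nr4a2 missed the threshold too, at 0.76 ± 0.23 on the log2 scale and an edgeR adjusted p of 0.109. Leaving out BRL replicate 1 gave the same log2 fold change of 0.76 and an edgeR adjusted p of 0.0488, just inside the threshold. In that fit 10.3% of tested genes rose and 10.9% fell. Nr4a2 passed in none of the other 17 alternatives, where adjusted p ranged up to 0.396.

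**Figure D2:**
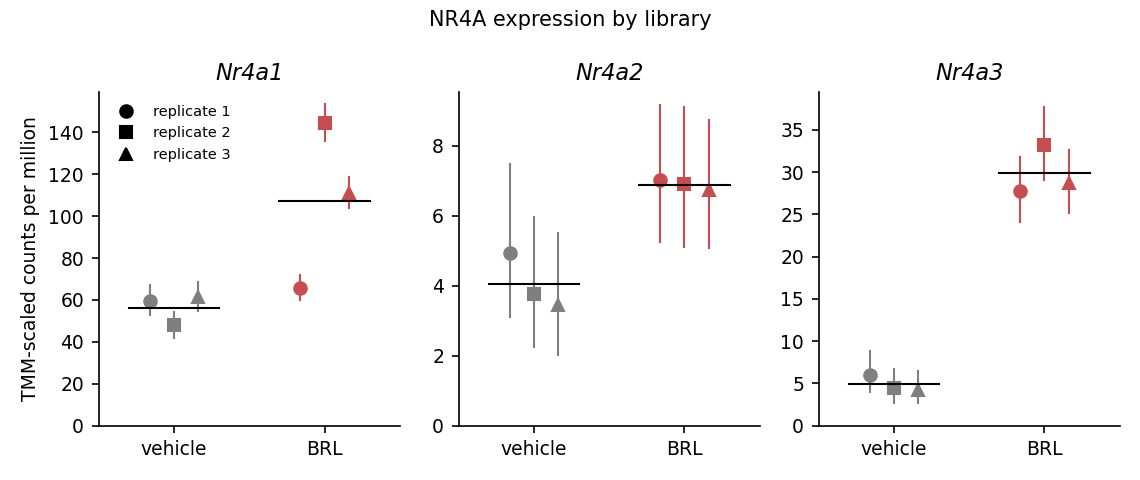
Level of each NR4A gene in every library, in TMM-scaled CPM on a linear axis from 0, with exact Poisson 95% intervals (bars, counting error only) and group means (black lines). Nr4a3 separates at 4.26 to 6.05 against 27.8 to 33.2 CPM, Nr4a2 at 3.45 to 4.93 against 6.72 to 7.01 CPM, and BRL replicate 1 of Nr4a1 sits at 65.6 CPM beside the vehicle libraries.

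In all 3 members every BRL library was above every vehicle library, as was the case for 16.0% of all tested genes, and 15.5% had every BRL library below. The direction was positive for all 3 genes in each of 18 alternative settings. Nr4a3 passed in all 18, with a log2 fold change from 2.17 to 2.79 and adjusted p of at most 0.0201. Nr4a1 passed in 4 of 18 (0.66 to 1.19) and Nr4a2 in 1 of 18 (0.61 to 0.93). The lowest value for Nr4a1 came from leaving out BRL replicate 2, its highest library, which gave adjusted p = 0.182. Counts of all 3 genes were whole in every library, within 0.005, which holds for 7582 of the 12047 tested genes, and their exons overlap no other annotated gene (GENCODE M21), and a whole count is what RSEM gives when it splits no read between genes.

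**Figure D3:**
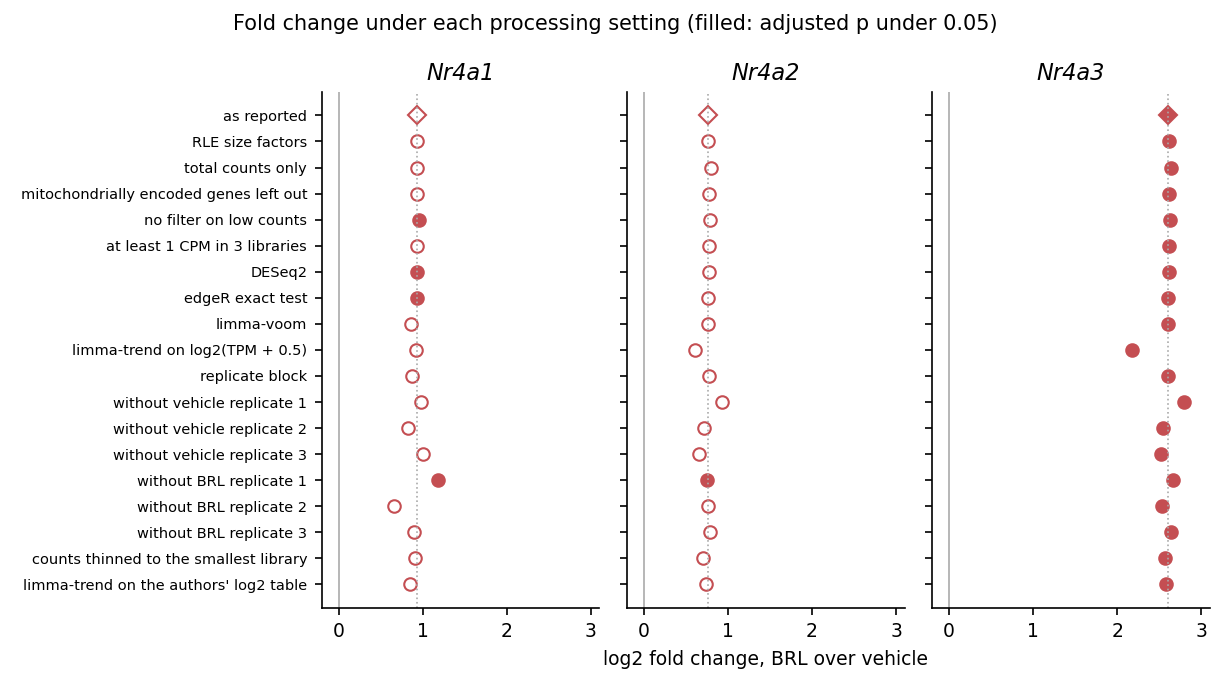
Log2 fold change of BRL over vehicle (horizontal axis) for each NR4A gene under the reported setting (diamond) and 18 alternatives (circles), filled where the adjusted p was under 0.05. Nr4a3 is filled throughout between 2.17 and 2.79, Nr4a1 is filled 4 times and Nr4a2 once among the alternatives.

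To ask whether the paralogs changed to different extents, their counts were compared within each library, where depth cancels. The ratio of Nr4a3 to Nr4a1 counts was 0.103, 0.0941 and 0.0711 in vehicle and 0.424, 0.230 and 0.259 in BRL. Every BRL library was higher, and BRL replicate 1, the BRL library with the lowest Nr4a1 level, was the highest. The ratio rose 3.32-fold, from a mean log2 of -3.50 ± 0.28 to -1.77 ± 0.47 (SD, n = 3 in each group). The ratio of Nr4a3 to Nr4a2 was 1.22, 1.16 and 1.23 in vehicle and 3.93, 4.78 and 4.24 in BRL, a 3.58-fold change (log2 0.27 ± 0.04 to 2.11 ± 0.14). For both ratios the groups did not overlap, and the two-sided exact permutation test gave p = 0.10, the smallest that 3 against 3 libraries allow (0.15 after Benjamini-Hochberg adjustment over the 3 pairs). The ratio of Nr4a1 to Nr4a2 overlapped between groups, at 11.8, 12.4 and 17.3 in vehicle and 9.28, 20.8 and 16.4 in BRL (log2 3.77 ± 0.30 and 3.88 ± 0.60, exact permutation p = 0.90).

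Levels of different genes were compared per transcript length, as TPM, the RSEM fraction of transcripts rescaled to a fixed total. In vehicle Nr4a1 was by far the most abundant member at 35.4 ± 5.33 TPM (SD, n = 3), with Nr4a2 at 2.11 ± 0.58 TPM and Nr4a3 at 1.79 ± 0.73 TPM. The vehicle levels of Nr4a2 (2.77, 1.88 and 1.68 TPM) and Nr4a3 (2.63, 1.30 and 1.44 TPM) did not differ beyond their spread. In BRL the order was Nr4a1 at 67.7 ± 13.8 TPM, Nr4a3 at 9.71 ± 2.60 TPM and Nr4a2 at 3.46 ± 0.74 TPM. Here Nr4a3, at 12.7, 8.47 and 7.96 TPM, was at 2.65 to 2.95 times Nr4a2 within each library, where in vehicle it had been at 0.692 to 0.951 times. Nr4a1 remained the main transcript of the family in every library, with 87.9% to 92.4% of the summed family TPM in vehicle and 76.1% to 87.6% in BRL. The share of Nr4a3 went from 3.50% to 5.92% in vehicle to 9.07% to 17.8% in BRL, and it was highest in BRL replicate 1. The summed family level was 39.3 ± 6.16 TPM in vehicle and 80.9 ± 11.3 TPM in BRL. The TPM scale divides by all transcripts, mitochondrial ones included, so the low mitochondrial share of BRL replicate 1 enters its TPM values but not the shares within the family.

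**Figure D4:**
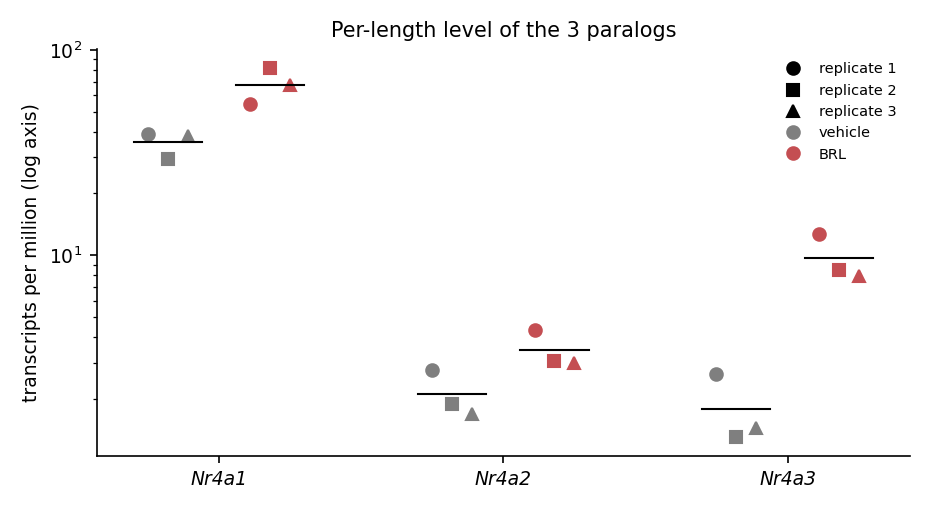
Per-length level (TPM, log axis) of each NR4A gene in the 6 libraries, with group means as black lines. Nr4a1 is highest in both groups, and Nr4a3 moves from beside Nr4a2 in vehicle (means of 1.79 and 2.11) to above it in BRL (9.71 and 3.46).

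Among 49 nuclear receptors of the mouse, 31 passed the filter on low counts. Of the 31, Nr4a3 had the largest log2 fold change, the vitamin D receptor Vdr came next (1.59 ± 0.11, edgeR adjusted p = 0.000693, from 70.5 ± 4.56 to 212 ± 18.1 CPM), and Nr4a1 and Nr4a2 followed in places 3 and 4. By mean TPM Nr4a1 ranked 6 in vehicle and 2 in BRL, behind Vdr, and Nr4a3 moved from 31 to 18. Over all tested genes 1.01% rose and 1.79% fell. Of the 28 tested receptors outside the family 1 rose, 1 fell and 26 did not pass. Their median log2 fold change was -0.14 (0.005 over all tested genes). The gene that fell was the thyroid hormone receptor Thra (-0.63 ± 0.13, edgeR adjusted p = 0.0435), whose counts were not whole. Without BRL replicate 1, 5 of 27 tested receptors rose and 7 fell, against 10.3% and 10.9% of all tested genes. Without any 1 of the other libraries 1 receptor rose and none fell. With all libraries the lowest value was that of the other thyroid hormone receptor, Thrb (-0.98 ± 0.24, edgeR adjusted p = 0.0710).

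The wider programme of early genes was given by a list of 50 genes known to respond to cyclic AMP or serum, of which 40 were tested. Over all tested genes 1.01% rose and 1.79% fell. Of these 40, 7 rose, 1 fell and 32 did not pass, with a median log2 fold change of 0.39. In order of p, those that rose were Pde4b, a phosphodiesterase that degrades cyclic AMP (1.38 ± 0.11), Irs2, an adaptor of the insulin receptor (1.61 ± 0.16), Sik1, a kinase that restrains CREB coactivators (1.24 ± 0.19), Pde4d, another cyclic AMP phosphodiesterase (1.23 ± 0.22), Nfil3, a leucine zipper repressor (1.08 ± 0.21), the stress gene Gadd45a (1.06 ± 0.21) and the small GTPase Gem, an inhibitor of calcium channels (0.63 ± 0.12). Their edgeR adjusted p lay between 0.00169 and 0.0389. The ERK phosphatase Dusp6 was the member that fell (-1.17 ± 0.19, edgeR adjusted p = 0.0177). Counts of Irs2 and Gadd45a were not whole. No gene of this list had a larger log2 fold change than the 2.61 of Nr4a3. Without BRL replicate 1, 21 of the 40 rose and 4 fell, with a median of 0.54. In that fit 10.3% of all tested genes rose and 10.9% fell. Leaving out any 1 of the other 5 libraries left 2 or 3 that rose and 0 to 2 that fell, and 3 rose with the replicate number as a block.

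Most of these early genes were, like Nr4a1, lowest in BRL replicate 1 among the BRL libraries. On the log2 scale, with 0.5 CPM added and relative to the mean of the vehicle libraries, Nr4a1 stood at 0.23, 1.36 and 0.99 in BRL replicates 1, 2 and 3, and the median of the 40 early genes at -0.06, 0.67 and 0.28. BRL replicate 1 was the lowest BRL library in 32 of the 40 genes (80%), against 45.2% of all tested genes. Dusp1, a phosphatase of MAP kinases, had 0.45, 1.22 and 0.88. Nr4a3 (2.40, 2.66 and 2.45) and Nr4a2 (0.74, 0.71 and 0.68) lay closer together over the BRL libraries, as did Pde4b (1.23, 1.40 and 1.48) and Pde4d (1.36, 1.11 and 1.20). Early genes highest in BRL replicate 1 included Pde4d and the coactivator Ppargc1a (0.88, 0.04 and 0.32). The BRL libraries of Nr4a2 did not differ beyond counting error (5.25 to 9.18 CPM in replicate 1, 5.06 to 8.75 CPM in replicate 3). The low mitochondrial share and the lower cardiomyocyte markers of BRL replicate 1 move with this pattern, and their part in it was not tested.

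**Figure D5:**
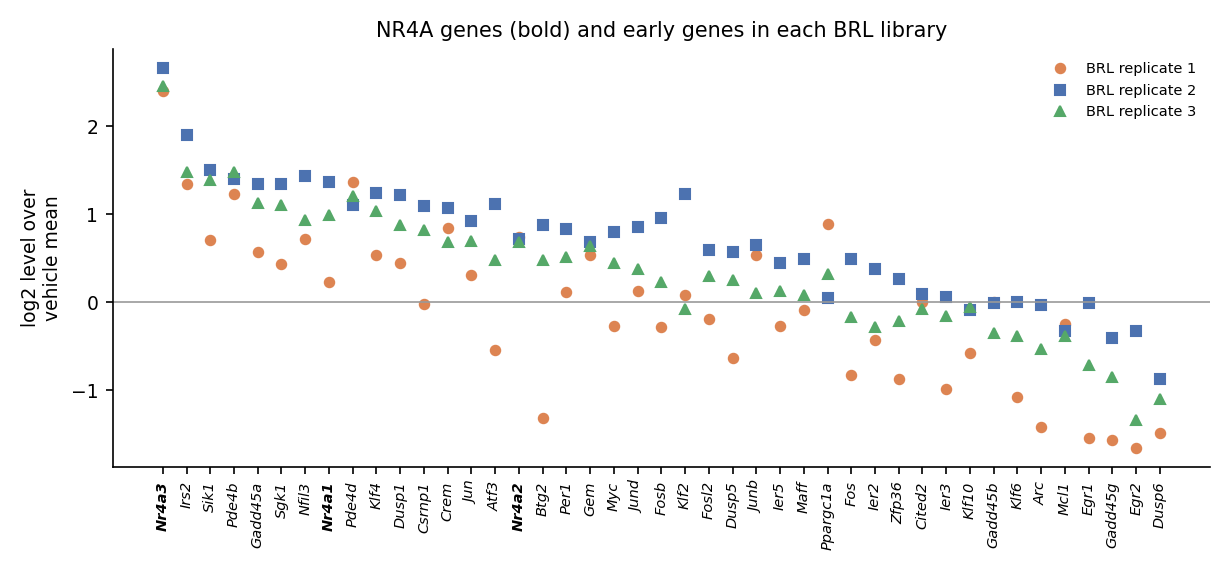
Log2 level over the vehicle mean (vertical axis, 0.5 CPM added) in each BRL library for the 3 NR4A genes (bold) and 40 early genes, ordered by the mean of BRL replicates 2 and 3. Replicate 1 (orange circles) is the lowest of the BRL libraries in 32 of the 40 early genes and in Nr4a1 (0.23 against 1.36 and 0.99), whereas the 3 libraries lie close together for Nr4a2 and Nr4a3.

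Factors that act on NR4A transcription were a list of 33 genes, with CREB and its coactivators, MEF2 factors and the deacetylases that repress them, and the calcineurin and NFAT pathway. Against 1.01% and 1.79% of all tested genes, none of the 29 tested here rose and 4 fell. Those that fell by edgeR's test were Hdac7 (-0.71 ± 0.13) and Hdac5 (-0.44 ± 0.09), class II deacetylases that bind MEF2, the hypoxia factor Hif1a (-0.63 ± 0.12, counts not whole) and the calcium-dependent kinase Camk2d (-0.57 ± 0.12), with adjusted p between 0.0340 and 0.0478. At an unadjusted edgeR p under 0.05, 4 were higher and 5 lower of the 29, where 22.4% of all tested genes passed in either direction. Rises were called for 0 genes by DESeq2, 1 by the exact test and 0 by limma-voom. For Creb1 itself the level was 34.0 ± 3.47 CPM in vehicle, against 33.3 ± 2.85 CPM with BRL. The list's median log2 fold change was -0.08. Without BRL replicate 1, 3 of the 29 rose and 9 fell, against 10.3% and 10.9% of all tested genes. Leaving out BRL replicate 2 left 1 that fell, leaving out any 1 of the remaining 4 libraries left none, and with the replicate number as a block 2 fell.

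Dimer partners and coregulators were 20 genes, of which 18 were tested, 1 rose and none fell. Over all tested genes 1.01% rose and 1.79% fell. The list's median was 0.07. The RXR partner Rxra was at 5.61, 4.83 and 6.49 CPM in vehicle, below the 11.1, 6.90 and 8.06 CPM of BRL, and missed the threshold (0.62 ± 0.25, adjusted p = 0.195). The main RXR transcript was Rxrb, at 47.8 TPM in vehicle and 51.3 TPM in BRL, against 2.30 and 3.18 TPM for Rxra. The log2 fold change of Rxrb was 0.10 ± 0.10 (edgeR adjusted p = 0.601). Rxrg, at 0.066 TPM in vehicle and 0 TPM in BRL, was not among the tested genes. Without BRL replicate 1, 2 of the 18 rose and 2 fell, against 10.3% and 10.9% of all tested genes. Without BRL replicate 3, 1 rose, and without any 1 of the other 4 libraries none passed.

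Genes described as regulated by NR4A receptors, mostly of muscle glucose and lipid metabolism, were 38, and none of the 28 tested passed edgeR over all genes. In that fit 1.01% of all tested genes rose and 1.79% fell. At an unadjusted p under 0.05, 1 was higher and 11 lower of the 28, against the same 22.4% of all tested genes. DESeq2 called falls in 3, the exact test in 6 and limma-voom in 0, with no rise in any of these. The median log2 fold change was -0.23, and every BRL library was below every vehicle library in 11 of the 28, against 15.5% of all tested genes. Endothelin Edn1 had the smallest p, at 12.8, 9.65 and 8.31 CPM in vehicle and 2.78, 5.49 and 4.15 CPM in BRL (-1.30 ± 0.29, edgeR adjusted p = 0.0562). The pyruvate dehydrogenase kinase Pdk4 (-0.41 ± 0.10, counts not whole) and phosphatase Pdp1 (-0.42 ± 0.10) had adjusted p of 0.0612 and 0.0682. Without BRL replicate 1, 11 of the 28 fell and 2 rose, against 10.9% and 10.3% of all tested genes. Without any 1 of the other 5 libraries none passed.

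The RSEM fraction and the count of a gene together give the mean effective transcript length that RSEM assigned to it. Relative to Nr4a1, which has 1 transcript in these files, Nr4a3 (4 transcripts, 895 to 5720 bases) had 1.51, 2.07 and 1.83 times its length in vehicle and 1.81, 2.22 and 2.18 times in BRL. Nr4a2 (6 transcripts) had 1.167, 1.23 and 1.27 times in vehicle and 1.35, 1.27 and 1.35 times in BRL. The ranges overlapped for Nr4a3. For Nr4a2 they did not, but the highest vehicle library (1.269) lay close to the lowest BRL library (1.273). In vehicle these values rest on 17 to 27 counts a library. Counts of single transcripts were not analysed here.

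The genes most like each member over the 6 libraries, by Pearson correlation of log2 CPM among 10425 other genes with a mean of at least 5 CPM, are given as a description. For Nr4a3 they were Nelfe (r = 0.999), a subunit of the pausing factor NELF, the mitochondrial ribosomal protein Mrps12 (0.995), the prohibitin Phb2 (0.993, counts not whole), Tmbim6 (0.992) and the ubiquitin ligase Herc4 (0.991). Of these Mrps12, Phb2 and Herc4 rose by edgeR's test. Herc4 had the largest log2 fold change of the 5, with 60.4 to 61.4 CPM in vehicle and 124 to 150 CPM in BRL (edgeR adjusted p = 0.00189). For Nr4a1 they were the adhesion molecule Mcam (0.995), the small GTPase Rnd3 (0.993), Tomm6 (0.993), Pabpc1 (0.992) and the amino acid transporter Slc7a5 (0.990), and counts of Tomm6 and Pabpc1 were not whole. Mcam had 161, 146 and 164 CPM in vehicle and 163, 275 and 239 CPM in BRL, so that its BRL replicate 1 lay within the vehicle range. For Nr4a2 they were Rpl36 (0.998), Ifi35 (0.998), Hdgfl2 (0.991), Rpl13 (0.990) and Eef1b2 (0.989), 2 ribosomal proteins and an elongation factor among them. Counts of Rpl36, Ifi35 and Rpl13 were not whole. Nr4a2 and Nr4a3 had r = 0.964 with each other, whereas Nr4a1 had 0.807 with Nr4a3 and 0.719 with Nr4a2. These correlations run over 6 libraries in 2 groups, so any gene that differs between the groups can score high.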

How the data were processed

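Groups and replicate numbers came from the sample titles. Per gene, the authors deposited expected counts from RSEM and the fraction of transcripts, rescaled here to TPM; a further deposited table of log2 values was used as an alternative. The build (NCBIM37) and the authors' tools (RSEM 1.17, Bowtie, cutadapt, edgeR) are named per the submitters' processing notes, without settings. Symbols were matched through the supplied name table (88.45% of genes). Expected counts were rounded and tested across all genes with edgeR 4.0.16 in R 4.3.3 (filterByExpr with a minimum count of 10, TMM, quasi-likelihood F-test, group as the only term, Benjamini-Hochberg adjustment, threshold 0.05), with DESeq2 1.42.0 and limma 3.58.1 as alternatives; SE was taken as the size of the log2 fold change divided by √F. Paralog ratios used counts with 0.5 added and an exact permutation test. The members, lists and naming rule (every list gene past the threshold, otherwise those of smallest p, and the 5 most correlated genes per member) were chosen with earlier results of these data known. Creb1, Rxra, Rxrb, Rxrg, Dusp1, Ppargc1a and the order of early genes by library were chosen after their values were seen. Single-gene values of some list members are not reported here.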

Additional observations from a re-analysis of the deposited data

How the results depend on the processing

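The rise of Nr4a3 passed in all 18 alternatives. Nr4a1 passed with no filter on low counts (0.95), by DESeq2 (0.93) and by the exact test (0.93), and leaving out a library in turn moved its log2 fold change from 0.66 to 1.19 and that of Nr4a2 from 0.66 to 0.93. The change of the Nr4a1 to Nr4a2 ratio turned to -0.14 without BRL replicate 2, and leaving out each library gave -0.14 to 0.44. Genes that rose numbered 122 and, in the alternatives that moved this by over 1.5 times, 77 with total counts only, 282 with no filter, 246 by DESeq2, 418 by the exact test, 30 on TPM, 63 with the replicate block and 17 to 1240 without a library. Genes that fell numbered 216, and 330 with no filter, 355 by DESeq2, 527 by the exact test, 29 on TPM and 15 to 1315 without a library. In the 5 lists together 9 rose and 6 fell. Rises there were 15 with no filter, 16 by the exact test, 5 on TPM, 5 with the replicate block and 3 to 33 without a library. Falls were 3 with total counts only, 10 with no filter, 12 by DESeq2, 16 by the exact test, 0 on TPM and 0 to 33 without a library. The highest counts came without BRL replicate 1, and the cause of these moves was not tested. The numbers were not taken as pairs because no label says that they mark a shared culture or day. Deviations from the group mean correlated at 0.10, 0.002 and -0.02 between same-numbered libraries over 10638 genes. Between libraries of different number they correlated at -0.15 to 0.17. With 3 libraries in each group centred on their own mean, these correlations cannot decide whether libraries were paired. With the replicate block the log2 fold changes were 0.87, 0.77 and 2.61 for Nr4a1, Nr4a2 and Nr4a3, and no call of these 3 changed. Thinning to the smallest library (21 draws, median) and the authors' deposited log2 table were added after seeing the data and changed no call of the 3. Depth limits Nr4a2 most, with 17 to 22 counts in a vehicle library.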
